A study of Mus musculus with 8 samples.

Results

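The genes described here are the ligands and receptors of the VEGF, placental growth factor and angiopoietin axis: the ligands Vegfa, Vegfb, Vegfc and Pgf, their receptors Flt1, Kdr and Flt4, the co-receptor Nrp1, and the angiopoietin pair of the ligand Angpt2 and the receptor Tek. They were taken by symbol, and all 10 were found among the 32098 gene rows of the table. RNA had been sequenced from 8 whole tumours of 4T1, a mouse mammary carcinoma cell line with the genotype WT. The ICI group (replicates 1, 2, 3 and 4) had been given an immune checkpoint inhibitor, and the RI group (replicates 1, 2, 4 and 5) radiation and the inhibitor, so both groups carried the inhibitor and no untreated tumour was compared. Which inhibitor and which dose of radiation were used is not in the labels, and neither is the position of an RI tumour relative to the beam. Separate animals are not stated for the tumours of a group, and p-values therefore rest on the spread among samples, part of which may be technical. The design text speaks of 3 replicates per group, and 4 were listed. The study's title concerns the response of tumours outside the irradiated field and fibroblasts around vessels, and the comparison asks how the vessel growth genes differed when radiation was added.

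VEGFA is the main growth factor of blood vessel endothelium and acts through KDR (VEGFR2), while FLT1 (VEGFR1) binds VEGFA, VEGFB and placental growth factor tightly and signals weakly, so that it can act as a decoy. VEGFC acts through FLT4 (VEGFR3) on lymphatic vessels, and NRP1 presents VEGFA to KDR. ANGPT1 activates TEK (TIE2) and steadies vessels, whereas ANGPT2, released by activated endothelium, mostly opposes it. In tumours the ligands come from cancer cells, macrophages and fibroblasts under low oxygen, and the receptors mark mainly endothelium.

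Values are FPKM, fragments scaled to exon length and to library depth, which can be compared between genes. The recovered depth was 27013100 to 42622700 fragments per tumour. Differences RI minus ICI are of the mean log2(FPKM + 1), with the standard error (SE) and the Benjamini-Hochberg adjusted p of limma over the 13439 genes that reached 1 FPKM in at least 4 tumours. A pseudocount of 1 understates the change of low genes. A gene is called changed at an adjusted p under 0.05, and 17.7% of the genes tested were called, 11.1% higher and 6.6% lower in RI. Of the calls 62.6% were higher in RI, and this share was 48% after median centring and 78.8% without the filter on low genes. In whole tumours fewer cells of a type and less RNA per cell cannot be told apart.

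Tumours ICI 1 and ICI 4 held transcripts of lung. Sftpc, the surfactant protein of alveolar type II cells, was 2887 FPKM in ICI 1 and 707 in ICI 4, and at most 0.204 in the other 6 tumours. Scgb1a1, the secretoglobin of airway club cells, was 5213 and 143 FPKM in these tumours and at most 0.311 elsewhere. The summed FPKM of 8 lung epithelial and lung stromal genes, a list chosen after their values were seen, was 8757 in ICI 1, 1016 in ICI 4 and at most 1.13 in the others. Lung is rich in endothelium and its alveolar epithelium makes VEGFA, so the members' results are given with all 8 tumours and without ICI 1 and ICI 4, a comparison of 2 ICI with 4 RI tumours added after the data were seen. The part of lung RNA in the results was not tested beyond that. The labelled mammary carcinoma cells express keratins, and Krt8 ran from 412 to 1064 FPKM and Krt18 from 333 to 877. Epcam was 5.02 and 3.19 FPKM in ICI 1 and ICI 4, and 0 to 1.06 FPKM in the others. RI 2 held fat markers, with Adipoq at 31.2 FPKM against at most 1.82 elsewhere. The summed FPKM of 3 skeletal muscle genes was lowest in ICI 1 and ICI 4 (2.91 and 0.846). It was 46.8 and 176 in ICI 2 and ICI 3 and 77.1 to 424 in RI. Of the 3 genes 1, Ckm, rose (limma adjusted p = 0.0258), or 33.3% against 17.7% of all genes tested. Of 5 tested pericyte and 3 tested lymphatic markers limma called 0, with 0 at an unadjusted p under 0.05, and 0 were called by limma voom, while limma with array weights called 1 pericyte marker. In RI 4 the nuclear genes of GENCODE M21 took 80.0% of the fragments, against 91.0% to 96.7% in the others.

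**Figure D1:**
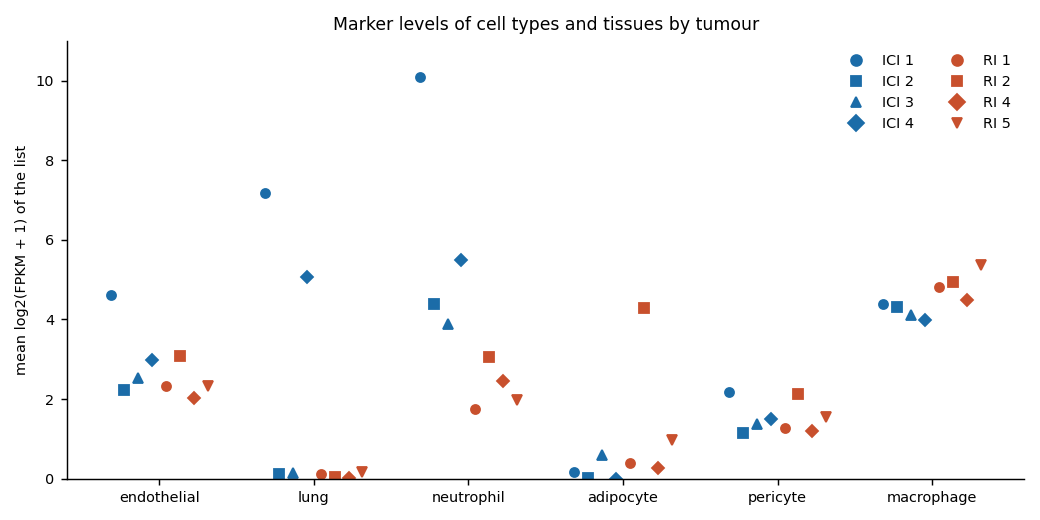
Mean log2(FPKM + 1) of 6 marker lists (vertical axis) in each of the 8 tumours, ICI in blue and RI in red, with a symbol for each replicate. ICI 1 had the highest endothelial level (4.61) and with ICI 4 was alone in lung markers (7.18 and 5.07), while RI 2 was alone in fat markers (4.30).

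The ligand Vegfa was lower in RI and was the 1 member called, whereas the other ligands did not pass. Vegfa, on chromosome 17 (46016993 to 46032369, GRCm38), was 51.3, 25.9, 28.4 and 35.7 FPKM in ICI 1, 2, 3 and 4. In RI 1, 2, 4 and 5 it was 17.8, 27.3, 12.3 and 15.5 FPKM. The groups overlapped through RI 2, which lay above ICI 2, and the highest ICI values belonged to the tumours with lung transcripts. The mean fell to 18.2 ± 6.44 FPKM from 35.3 ± 11.5 FPKM (SD, n = 4 each), or −0.93 in log2 (SE 0.27, limma adjusted p = 0.0455). Without ICI 1 and ICI 4 the difference was −0.61 and was not called (limma adjusted p = 0.197), with an ICI mean of 27.1 FPKM. It was also not called without ICI 1 alone (−0.73, limma adjusted p = 0.0593), nor without ICI 3, ICI 4, RI 1, RI 4 or RI 5 alone (limma adjusted p 0.0547 to 0.109). Array weights gave −0.46 (limma adjusted p = 0.138), and leaving out ICI 1 and RI 4 gave −0.58 (limma adjusted p = 0.0954). Vegfa is spliced into several isoforms, which gene-level FPKM do not separate.

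The 250 bases before the more distal Vegfa start of RefSeq (GRCm38.p6) lie at chr17:46032378-46032627 on the minus strand and are shown because Vegfa was the member called. The cores ACGTG and GCGTG, which hypoxia-inducible factors can bind, were searched on both strands, and 0 were found in this window. Sequence further upstream was not searched, so the count says nothing of sites there. The window before the other Vegfa start, chr17:46025164-46025413, held 1 of each. That window lies inside the gene as transcribed from the distal start, so its matches may fall in coding sequence. Of 32851 windows of this length 38.6% held either core. The palindrome TTCCNGGAA was in 0 of 11 windows of the 9 members that the RefSeq table holds and in 0.913% of all.
Vegfa: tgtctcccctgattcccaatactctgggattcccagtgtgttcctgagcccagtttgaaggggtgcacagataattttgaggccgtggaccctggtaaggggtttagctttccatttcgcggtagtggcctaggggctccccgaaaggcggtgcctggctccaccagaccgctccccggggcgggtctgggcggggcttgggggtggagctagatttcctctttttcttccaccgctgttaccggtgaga

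Placental growth factor, a ligand of FLT1, had a difference of similar size. Pgf (chromosome 12, 85166635 to 85177790) was 6.35, 8.93, 10.04 and 17.0 FPKM in ICI 1 to 4 and 5.74, 7.29, 3.5 and 5.09 FPKM in RI 1, 2, 4 and 5. ICI 4 was high, and the groups overlapped only in that RI 2 lay above ICI 1. The means were 10.6 ± 4.56 and 5.41 ± 1.57 FPKM (SD, n = 4 each), or −0.81 in log2 (SE 0.28, limma adjusted p = 0.0706). Without ICI 1 it passed (−1.0, limma adjusted p = 0.0277), and without both ICI 1 and ICI 4 it did not (−0.74, limma adjusted p = 0.0922). Array weights gave −0.67, which passed (limma adjusted p = 0.0317), in a fit that called 32.1% of all genes tested. None of the 10 members had groups that did not overlap, whereas 27.9% of the genes tested had all 4 RI values on one side of the ICI values.

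Vegfb, a ligand of FLT1 known for its role in metabolic tissue more than in vessel growth, had the highest median of the members. It lies on chromosome 19 (6982473 to 6987651) and was 34.4, 58.0, 58.6 and 42.6 FPKM in ICI 1 to 4 and 41.4, 40.3, 33.6 and 25.2 FPKM in RI 1, 2, 4 and 5. ICI 2, ICI 3 and ICI 4 were above every RI tumour, and ICI 1 was not. The log2 difference was −0.44 (SE 0.23, limma adjusted p = 0.187), and −0.10 once trends on exon length and GC content had been taken out of each library (limma adjusted p = 0.778). Without ICI 1 and ICI 4 it was −0.74 (limma adjusted p = 0.0769), and with array weights it was −0.50 and passed (limma adjusted p = 0.0428).

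Vegfc, the lymphatic ligand (chromosome 8, 54077606 to 54187096), was low and uneven. It was 3.19, 1.12, 0.656 and 1.07 FPKM in ICI 1 to 4 and 1.28, 2.34, 1.34 and 3.19 FPKM in RI 1, 2, 4 and 5, from 59 to 333 fragments. Apart from ICI 1, each ICI value lay below each RI value. The log2 difference was 0.32 (SE 0.31, limma adjusted p = 0.483), and 0.65 without ICI 1 and ICI 4 (limma adjusted p = 0.192). The related lymphatic ligand Vegfd was 6.58 FPKM in ICI 1 and 0.237 to 2.54 FPKM in the other 7 tumours. Prox1, the transcription factor that defines lymphatic endothelium, was at most 0.123 FPKM, and Lyve1, of lymphatic endothelium and some macrophages, was 0.545 to 15.4 FPKM.

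**Figure D2:**
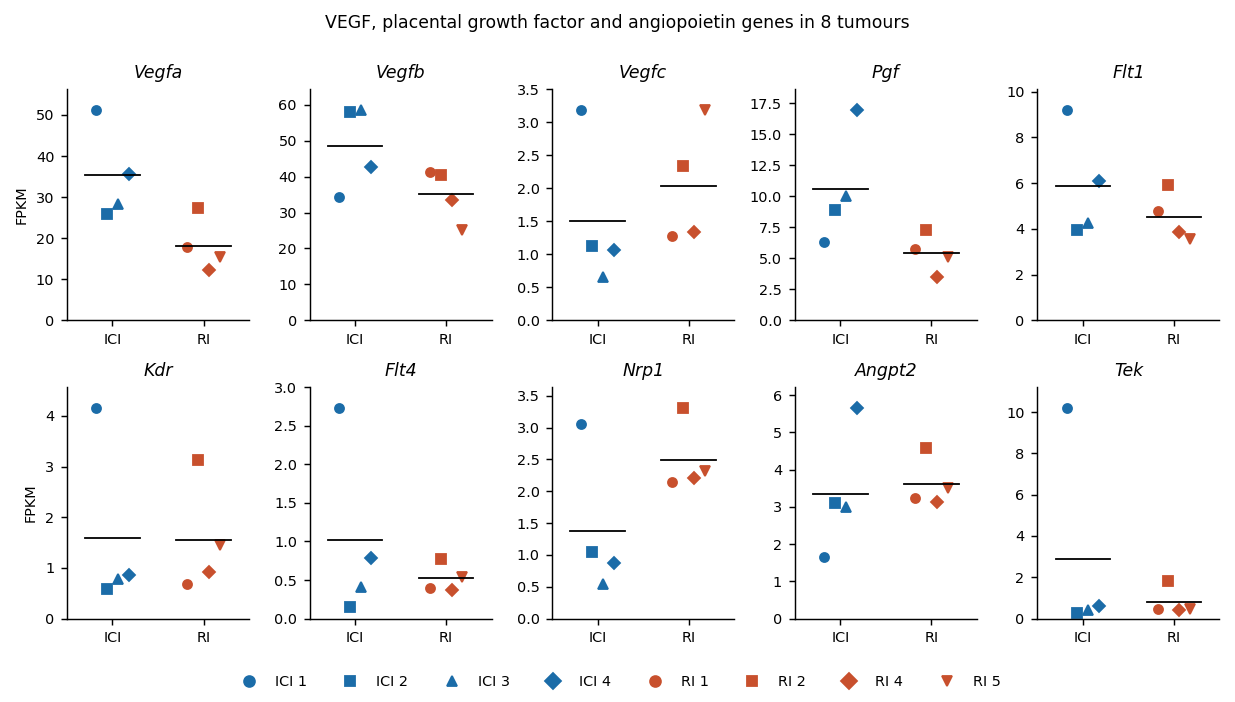
FPKM of the 10 genes (vertical axes, each from 0) in the ICI and RI tumours, with a symbol for each replicate and a line at the group mean. Vegfa and Pgf were lower in RI with an overlap of the groups, Nrp1 lay above 3 of the 4 ICI tumours in all RI tumours, and Tek, Flt4 and Kdr were highest in ICI 1.

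The receptors of endothelium were low, and ICI 1 was the highest tumour for each. Flt1 (chromosome 5, 147561604 to 147726011) had the highest median of the receptors, at 9.21, 3.94, 4.24 and 6.09 FPKM in ICI 1 to 4 and 4.79, 5.91, 3.85 and 3.54 FPKM in RI 1, 2, 4 and 5. ICI 1 and ICI 4, which held lung RNA, were highest, and the other 6 tumours lay between 3.54 and 5.91 FPKM. The log2 difference was −0.27 (SE 0.24, limma adjusted p = 0.446), and it was 0.10 without ICI 1 and ICI 4 (limma adjusted p = 0.772). Flt1 also makes a soluble decoy form, which gene-level FPKM do not separate.

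Kdr, the signalling receptor of VEGFA (chromosome 5, 75932827 to 75978458), was below 1 FPKM in 5 of the 8 tumours and so was outside the genes tested. It was 4.16, 0.59, 0.787 and 0.864 FPKM in ICI 1 to 4 and 0.693, 3.14, 0.916 and 1.45 FPKM in RI 1, 2, 4 and 5. ICI 1, the tumour with most lung RNA, and RI 2, the tumour with fat markers, stood above the rest. The group means were 1.6 ± 1.71 and 1.55 ± 1.11 FPKM (SD, n = 4 each; two-sided exact permutation p = 0.857). The 70 regroupings of 4 against 4 tumours cannot give less than 0.0286. Without ICI 1 and ICI 4 the log2 difference went from 0.07 to 0.51 (exact permutation p = 0.333, where 15 regroupings allow no less than 0.0667).

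Tek, the angiopoietin receptor (chromosome 4, 94739289 to 94874976), depended most on 1 tumour. It was 10.2, 0.258, 0.428 and 0.598 FPKM in ICI 1 to 4 and 0.487, 1.83, 0.414 and 0.473 FPKM in RI 1, 2, 4 and 5. The 1588 fragments in ICI 1 compare with 49 to 277 in the other 7. ICI 1 was 5.60 times the next highest tumour and 23.9 times the mean of the other ICI tumours. The log2 difference of −0.47 (two-sided exact permutation p = 0.800) became 0.36 without ICI 1 and ICI 4 (exact permutation p = 0.467). Flt4, the receptor of VEGFC (chromosome 11, 49609263 to 49652739), had the same highest tumour, with 2.73, 0.151, 0.404 and 0.791 FPKM in ICI 1 to 4 and 0.396, 0.778, 0.371 and 0.536 FPKM in RI 1, 2, 4 and 5. Its log2 difference went from −0.26 (exact permutation p = 0.657) to 0.25 (exact permutation p = 0.267) without ICI 1 and ICI 4. ICI 1 was thus the highest tumour for 5 of the 10 members (Vegfa, Flt1, Kdr, Flt4 and Tek) and for 13 of 15 endothelial markers, and for 24.0% of the genes tested.

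Tek and Kdr were the receptors highest in ICI 1 and next highest in RI 2, and their upstream windows are shown for that reason. The 250 bases before the start annotated by RefSeq (GRCm38.p6) lie at chr4:94739039-94739288 on the plus strand and chr5:75978456-75978705 on the minus strand. Capitals mark GCGTG or its reverse complement. The Kdr window held 2 such matches and the Tek window 0. Of 32851 windows of this length 28.2% held at least 1.
Tek: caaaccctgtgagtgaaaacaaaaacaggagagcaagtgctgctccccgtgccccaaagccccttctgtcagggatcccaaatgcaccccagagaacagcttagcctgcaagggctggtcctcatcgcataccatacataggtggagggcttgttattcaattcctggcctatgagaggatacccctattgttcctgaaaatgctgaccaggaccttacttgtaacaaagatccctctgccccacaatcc
Kdr: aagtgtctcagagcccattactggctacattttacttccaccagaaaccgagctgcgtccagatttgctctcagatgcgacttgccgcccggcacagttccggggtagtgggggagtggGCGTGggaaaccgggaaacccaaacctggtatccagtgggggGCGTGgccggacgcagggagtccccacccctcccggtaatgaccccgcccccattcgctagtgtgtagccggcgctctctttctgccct

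The co-receptor Nrp1 (chromosome 8, 128358604 to 128503363) did not pass with all 8 tumours and passed once ICI 1 was left out. It was 3.05, 1.04, 0.549 and 0.877 FPKM in ICI 1 to 4 and 2.14, 3.31, 2.21 and 2.32 FPKM in RI 1, 2, 4 and 5. Each RI tumour lay above ICI 2, 3 and 4, and ICI 1 lay among the RI tumours. With all 8 tumours the means were 1.38 ± 1.13 and 2.50 ± 0.548 FPKM (SD, n = 4 each), or 0.65 in log2 (SE 0.28, limma adjusted p = 0.133). Without ICI 1 it was 0.94 (limma adjusted p = 0.0121), and without ICI 1 and ICI 4 it was 0.97 (limma adjusted p = 0.0480). It also passed with array weights (0.97, limma adjusted p = 0.00526). With length and GC trends taken out of all 8 libraries it was 0.38 (limma adjusted p = 0.397).

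Macrophages and fibroblasts also express Nrp1, and some markers of both differed between the groups. Of 7 macrophage markers 2 rose and 0 fell: Adgre1, which encodes F4/80, went from 1.22 to 7.68 FPKM (limma adjusted p = 0.00158) and the mannose receptor Mrc1 from 7.68 to 26.5 FPKM (limma adjusted p = 0.0207). That was 28.6% called, against 17.7% of all genes tested. The other 5 did not pass, among them Csf1r (0.31 in log2, limma adjusted p = 0.353) and Cd68 (−0.16, limma adjusted p = 0.559). By sign 6 of the 7 were higher in RI and 1, Cd68, was lower. The summed FPKM of the 7 macrophage markers was 288 to 362 in ICI and 283 to 709 in RI. Without ICI 1 and ICI 4 only Adgre1 passed (limma adjusted p = 0.0388). Of 6 tested fibroblast markers 4 rose and 0 fell (66.7% called, against 17.7% of all genes tested). These were the collagens Col1a1 (limma adjusted p = 0.0254), Col1a2 and Col3a1 and the proteoglycan Lum. The summed FPKM of the 7 listed was 44.6 to 64.3 in ICI and 101 to 505 in RI, highest in RI 2, and without ICI 1 and ICI 4 0 of the 6 passed. The log2 differences of Col1a1, Col1a2 and Col3a1 were then 1.90, 1.67 and 2.00, against 1.96, 1.65 and 2.02 with all 8 tumours, and that of Lum was 1.07 against 1.43. The part of these cells in the Nrp1 difference was not tested. The first 3 markers of either list were above 0 in all 8 tumours.

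The ligand Angpt2 (chromosome 8, 18690263 to 18741562) did not pass. It was 1.66, 3.11, 3.01 and 5.66 FPKM in ICI 1 to 4 and 3.24, 4.59, 3.12 and 3.5 FPKM in RI 1, 2, 4 and 5. ICI 1, highest for the endothelial receptors, was the lowest tumour for Angpt2. The log2 difference was 0.15 (SE 0.25, limma adjusted p = 0.703), and 0.17 without ICI 1 and ICI 4 (limma adjusted p = 0.539). Angpt1, the ligand that activates TEK, was 1.76, 1.19, 0.419 and 0.424 FPKM in ICI 1 to 4 and 1.46, 1.6, 1.74 and 1.75 FPKM in RI 1, 2, 4 and 5, a log2 difference of 0.50 that did not pass (limma adjusted p = 0.161). Angpt1 passed without ICI 1 (0.68, limma adjusted p = 0.0429) and with array weights (0.55, limma adjusted p = 0.0449), and not without ICI 1 and ICI 4 (0.58, limma adjusted p = 0.146). Ratios here are of FPKM + 1, which understates those of low genes. The log2 ratio of Angpt2 to Angpt1 ran from −0.05 in ICI 1 to 2.22 in ICI 4, and from 0.59 to 1.1 in RI. Its difference was −0.35 (two-sided exact permutation p = 0.543), −0.74 with a pseudocount of 0.1, and −0.41 without ICI 1 and ICI 4.

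**Figure D3:**
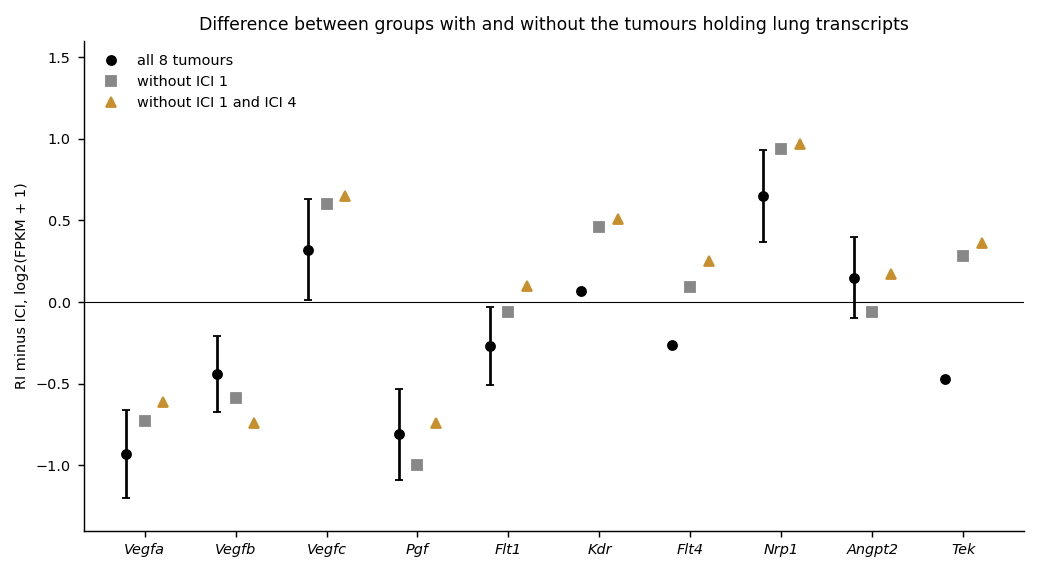
Difference RI minus ICI of the mean log2(FPKM + 1) (vertical axis) for the 10 genes with all 8 tumours (black, with the limma SE where the gene was tested), without ICI 1 (grey) and without ICI 1 and ICI 4 (yellow). Tek moved from −0.47 to 0.36 and Nrp1 from 0.65 to 0.97, while Vegfa moved from −0.93 to −0.61.

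Relative to endothelial markers, Nrp1 had the largest difference of the 6 genes examined. The mean log2(FPKM + 1) of 15 endothelial markers was 4.61, 2.23, 2.53 and 2.99 in ICI 1 to 4 and 2.33, 3.08, 2.04 and 2.34 in RI 1, 2, 4 and 5, and of 13 tested markers 0 were called by limma, with 1 at an unadjusted p under 0.05. Limma voom on fragments also called 0, and limma with array weights 1. By sign 2 of the 13 were higher in RI and 11 lower. The marker level itself had a difference of −0.65 (two-sided exact permutation p = 0.314). Subtracting it raises every relative difference by that amount, and Nrp1 before the subtraction had 0.65. Minus that level, Nrp1 was −2.60, −1.21, −1.90 and −2.08 in ICI 1 to 4 and −0.68, −0.97, −0.35 and −0.60 in RI 1, 2, 4 and 5. The groups did not overlap, and the difference of 1.29 had the smallest p that 70 regroupings give, 0.0286 (two-sided exact permutation). Adjusted over the 10 ratios and relative values computed, p was 0.190, and none of the 10 passed. Without ICI 1 and ICI 4 the difference was 0.90.

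Kdr relative to the same markers was −2.25, −1.57, −1.69 and −2.09 in ICI 1 to 4 and −1.57, −1.03, −1.1 and −1.05 in RI 1, 2, 4 and 5. Only RI 1 reached down to the ICI values, and the difference was 0.71 (two-sided exact permutation p = 0.0571). Before the subtraction Kdr had 0.07, so most of this value came from the marker level, which had −0.65. With Pecam1 and Cdh5 as the reference it was 0.36, and without ICI 1 and ICI 4 it was 0.44. The ratio of Vegfa to Kdr, the ligand against its receptor, is also of FPKM + 1, and Kdr was low. Its log2 values were 3.34, 4.08, 4.04 and 4.30 in ICI 1 to 4 and 3.47, 2.77, 2.79 and 2.75 in RI 1, 2, 4 and 5. RI 1 lay among the ICI tumours and the other 3 RI tumours below them, a difference of −0.99 (two-sided exact permutation p = 0.0571), and it was −1.11 without ICI 1 and ICI 4. Differences of Flt1, Flt4, Angpt2 and Tek relative to the endothelial markers were 0.37, 0.38, 0.79 and 0.18, those of the ratios of Kdr to Flt1 and of Pgf to Vegfa 0.34 and 0.12, and their two-sided exact permutation p ran from 0.143 to 1.00. Without ICI 1 the relative differences of Flt1, Flt4, Angpt2 and Tek were 0.08, 0.22, 0.07 and 0.41, and without ICI 1 and ICI 4 they were 0.04, 0.19, 0.11 and 0.30. The ratios of Kdr to Flt1 and of Pgf to Vegfa then differed by 0.41 and −0.14.

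**Figure D4:**
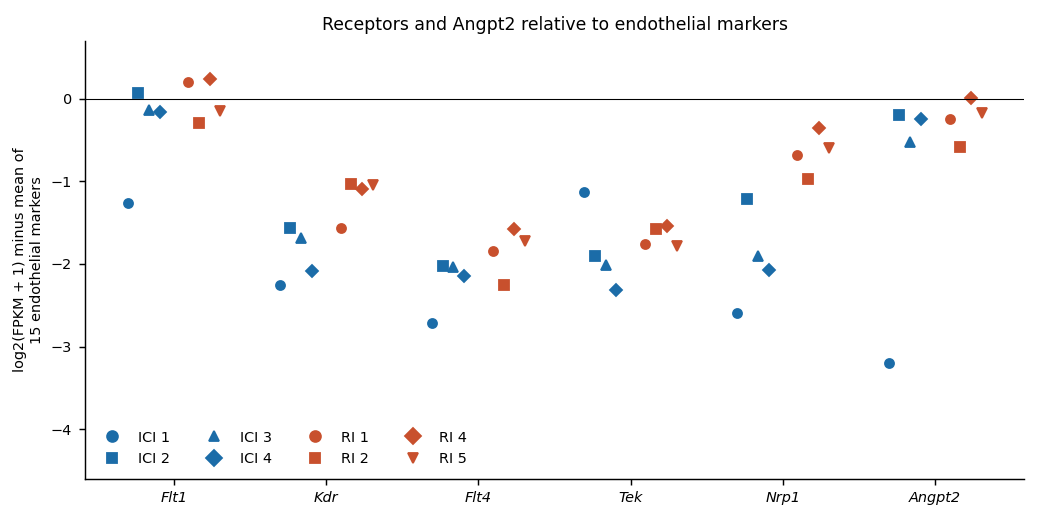
Log2(FPKM + 1) of 6 genes minus the mean of 15 endothelial markers in the same tumour (vertical axis), ICI in blue and RI in red. Nrp1 lay between −0.97 and −0.35 in RI and between −2.60 and −1.21 in ICI, and ICI 1 was the lowest tumour for each gene but Tek.

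Among the other genes of the pathway Nrp2, Plxnd1 and Foxo1 rose and none was called lower. Of 30 listed genes 24 were tested, 3 rose, 0 fell and 21 did not pass, with a median log2 difference of 0.18 against 0.01 over all genes tested, and the 12.5% called compares with 17.7% of all genes. Nrp2, the neuropilin that binds VEGFC and class 3 semaphorins, was 7.67, 18.8, 23.4 and 15.6 FPKM in ICI 1 to 4 and 38.5, 39.2, 36.9 and 24.9 FPKM in RI 1, 2, 4 and 5. All RI values lay above all ICI values, and the mean rose to 34.9 ± 6.70 FPKM from 16.4 ± 6.63 FPKM (SD, n = 4 each), by 1.12 in log2 (SE 0.30, limma adjusted p = 0.0361). In FPKM Nrp2 was above Nrp1 in every tumour. Plxnd1, a semaphorin receptor of endothelium, rose from 9.83 ± 0.919 to 16.3 ± 4.22 FPKM (limma adjusted p = 0.0380), and Foxo1, a transcription factor restrained by TEK signalling that drives Angpt2, from 1.46 ± 0.313 to 2.61 ± 0.474 FPKM (limma adjusted p = 0.0472), also without overlap of the groups. In all 5 of the 24 genes had groups that did not overlap, Klf2 and Col18a1 being the others, against 27.9% of all genes tested.

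Without ICI 1 and ICI 4 the log2 differences of Nrp2, Plxnd1 and Foxo1 were 0.68, 0.68 and 0.51, and 0 of the 24 genes passed (limma adjusted p = 0.0916, 0.103 and 0.153). Leaving out 1 library also ended calls: Nrp2 passed only without ICI 1 or ICI 3, Plxnd1 only without ICI 1, RI 4 or RI 5, and Foxo1 only without ICI 3 or RI 4. With length and GC trends taken out Plxnd1 alone of the 3 passed (0.58, limma adjusted p = 0.0439), with 0.82 for Nrp2 (limma adjusted p = 0.0860) and 0.27 for Foxo1 (limma adjusted p = 0.179). Tie1, the partner of TEK, was 15.1 FPKM in ICI 1 and 2.05 to 7.63 FPKM in the others, and Ptprb, the phosphatase that restrains TEK, 7.09 against 0.431 to 2.79 FPKM. The flow-induced factor Klf2 was 293 and 71.3 FPKM in ICI 1 and ICI 4, 16.3 in both ICI 2 and ICI 3, and 6.55 to 15.3 FPKM in RI (−2.19 in log2, limma adjusted p = 0.107, and −0.65 without ICI 1 and ICI 4). The tip cell genes Esm1 and Apln, induced by VEGFA, had log2 differences of 0.27 each (limma adjusted p = 0.558 and 0.498), which were 0.26 and 0.02 without ICI 1 and ICI 4.

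Vegfa and Pgf are known targets of the response to low oxygen. Beside them 16 genes of that response and of its regulation, such as Hif1a, Epas1, Arnt and Vhl, were listed. Of these 1 rose, 1 fell and 14 did not pass (12.5% called, against 17.7% of all genes tested). By sign 11 were higher and 5 lower in RI with all 8 tumours (median log2 difference 0.26), whereas 4 were higher and 12 lower without ICI 1 and ICI 4 (median −0.165). Hif1a, the oxygen-regulated transcription factor, rose from 15.6 to 29.3 FPKM (limma adjusted p = 0.0343), and Ankrd37, a direct target of it, fell from 14.6 to 5.56 FPKM (limma adjusted p = 0.0308). Neither passed without ICI 1 and ICI 4 (0.49 and −1.22, limma adjusted p = 0.0775 and 0.0510). With 1 library left out Hif1a passed without ICI 1, ICI 2 or ICI 3 and Ankrd37 without ICI 1, ICI 3, ICI 4 or RI 2, and not otherwise. Carbonic anhydrase Car9 and the prolyl hydroxylase Egln3 had log2 differences of 0.38 and 0.40 (limma adjusted p = 0.547 and 0.358). These were −0.02 and 0.17 without ICI 1, and −0.32 and −0.14 without ICI 1 and ICI 4. The glucose transporter Slc2a1 and the peptide hormone Adm had −0.42 and −0.36 (limma adjusted p = 0.384 and 0.546), and −0.88 and −0.79 without ICI 1 and ICI 4. Slc2a1 passed without ICI 1 alone (−0.77, limma adjusted p = 0.0258). ICI 1 was the lowest tumour for 11 of the 16 genes, as it was for 29.3% of the genes tested, and the highest for Vegfa. Ndrg1, for example, was 21.5 FPKM in ICI 1 and 63.7 to 113 FPKM in the other 7.

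Neutrophils can also make VEGFA, and the neutrophil calprotectin genes S100a8 and S100a9 fell (limma adjusted p = 0.0457 and 0.0380). Of 6 neutrophil markers 2 thus fell and 0 rose (33.3% called, against 17.7% of all genes tested). Limma voom called 0 and limma with array weights 3 lower, in a fit that called 32.1% of all genes tested. By sign all 6 were lower in RI, and limma without ICI 1 called 5 lower, where 20% of all genes tested were called. The groups did not overlap for 5 of the 6, against 27.9% of all genes tested. The list had a summed FPKM of 208 to 21281 in ICI and 19.8 to 79.4 in RI, highest in ICI 1 and next in ICI 4. Without ICI 1 and ICI 4 S100a8 alone passed (−2.84, limma adjusted p = 0.0439). With 1 library left out both passed without ICI 1 or ICI 3 only. Of 4 tested tumour epithelial markers 0 were called by limma, 1 had an unadjusted p under 0.05, limma voom called 0 and limma with array weights 2, while the sum of the 6 listed was 917 to 1954 FPKM in ICI and 759 to 1383 in RI. The part of these cells in the Vegfa difference was not tested.

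**Figure D5:**
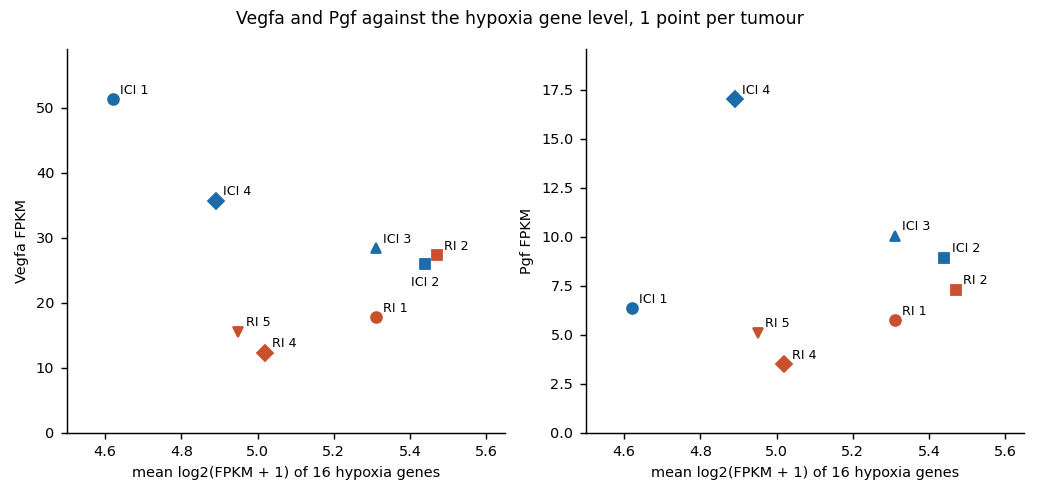
Vegfa (left) and Pgf (right) in FPKM (vertical axes, from 0) against the mean log2(FPKM + 1) of 16 hypoxia genes (horizontal axes), 1 labelled point per tumour. ICI 1 had the lowest hypoxia level (4.62) and the highest Vegfa (51.3 FPKM), and RI 2 and ICI 2, with hypoxia levels of 5.47 and 5.44, had 27.3 and 25.9 FPKM of Vegfa.

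The genes whose pattern over the 8 tumours was most like that of a member were named by the root mean square difference of centred log2(FPKM + 1) among 6602 genes. For Vegfa they were Leng1, Dffb and Fxyd5 (0.171, 0.183 and 0.188), and Fxyd5 was 115, 64.9, 63.4 and 83.0 FPKM in ICI 1 to 4 and 44.3, 44.1, 30.2 and 38.8 FPKM in RI 1, 2, 4 and 5. For Pgf they were Cox7c, Clcf1 and Rps12-ps18 (0.117, 0.164 and 0.176), each highest in ICI 4. Rps12-ps18 is a pseudogene whose reads may come from a near-identical copy. For Kdr they were Oplah, Fzd4 and Pnpla2 (0.131, 0.152 and 0.169), each highest in ICI 1 and next in RI 2. For Angpt2 they were Dnajb9, Wnt9a and Ndrg4 (0.172, 0.178 and 0.182). These are descriptions over 8 tumours of 2 groups.

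By median over the 8 tumours the members ranked Vegfb (40.8 FPKM), Vegfa (26.6), Pgf (6.82), Flt1 (4.52), Angpt2 (3.18), Nrp1 (2.18), Vegfc (1.31), Kdr (0.890), Tek (0.480) and Flt4 (0.470). The ranges of neighbours in that order overlapped, so that only distant members were apart: the lowest Vegfa value (12.3 FPKM) exceeded the highest of Flt1 (9.21), Angpt2, Nrp1, Vegfc, Kdr, Flt4 and Tek (10.2). Vegfa and Vegfb were above Flt1 in every tumour, and Pgf was above Flt1 in all but ICI 1 and RI 4. Of the 7 members tested 0 rose and 1 fell, 14.3% against 17.7% of all genes tested, with a median log2 difference of −0.27 against 0.01 over all genes.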

How the data were processed

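The data were 1 table of FPKM for 8 tumours, deposited by the authors, a column for each tumour. Per the submitters' processing notes, HISAT2 was used with GRCm38 (mm10). How fragments were counted, on which annotation and with which filter is not given in the sources used here. Groups and replicate numbers came from the sample titles.

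GENCODE M21 held the identifiers of 31407 of the 32098 rows and gave coordinates, union exon length and transcript GC content. Low FPKM multiplied by exon length fall on regular steps in each library, and a step was taken as 1 fragment. Of values up to 50 fragments, 98.6% to 98.8% then lay within 0.05 of a whole number. These fragments gave depth and 1 alternative fit.

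The test was two-sided limma 3.58.1 in R 4.3.3 on log2(FPKM + 1), with trended and robust eBayes, for genes that reached 1 FPKM in 4 or more tumours, with Benjamini-Hochberg adjustment over all 13439 genes tested. Single values and genes below that filter were compared by exact permutation over samples. The 4 ratios and 6 relative values were differences of log2(FPKM + 1) and were adjusted as 1 family of 10. The fit was checked on simulated data. All pairs of libraries within a group differed beyond sampling noise (lowest chi-square per gene 32.8).

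The members, gene lists, marker lists, motifs and settings were chosen with earlier results of these data known. All members are named. Genes of the lists that were called and the first 3 markers of a list could be named, and, for Kdr, Vegfa, Pgf and Angpt2, the 3 tested genes (SD of at least 0.3, Gm and Rik models left out) nearest in pattern. Sftpc, Scgb1a1, Adipoq and the lung, fat and muscle lists were chosen after their values were seen, and so were the other uncalled list genes given with values. Alternatives were other filters, pseudocounts and scalings, TPM, length and GC correction (lowess, span 0.3), array weights, voom, a replicate block and libraries left out.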

Additional observations from a re-analysis of the deposited data

Results flagged for a closer look

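A group of 4 tumours is listed here where the gap between its most extreme tumour and the next, as a share of the group's range, exceeded 0.829 (Dixon's 95% value). Of 40 groups examined 8 did so. The rate of about 1 in 20 that this value stands for assumes independent, normal values. These groups share tumours and genes, and part of them are unlogged FPKM, so that rate cannot be set against the 8. In ICI, Tek was 10.2 FPKM in ICI 1 with the next tumour at 0.598, and Kdr was 4.16 FPKM in ICI 1 with the next at 0.864. In RI, Tek was 1.83 FPKM in RI 2 with the next at 0.487, and Nrp1 was 3.31 FPKM in RI 2 with the next at 2.32. Relative to the endothelial markers (log2), Flt4 was −2.72 and Angpt2 −3.20 in ICI 1, with the next tumours at −2.15 and −0.53. Kdr relative to these markers was −1.57 in RI 1 with the next at −1.1, and the ratio of Vegfa to Kdr was 3.47 in RI 1 with the next at 2.79.

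ICI 1 was the tumour with most lung RNA (Sftpc 2887 FPKM) and RI 2 the tumour with fat markers (Adipoq 31.2 FPKM, Plin1 8.25 and Cidec 24.5). Their part in these values was not tested.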

How the results depend on the processing

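With all 8 tumours 2373 genes were called, and in separate fits the count was 241 without the filter, 280 with TPM, 4319 with array weights, 603 without both ICI 1 and ICI 4, and 336 to 2693 with 1 library left out. Nothing in the labels says whether the replicate numbers pair the samples. The correlation of deviations was −0.124 to −0.092 for the 3 shared numbers, too few to decide it. With the number as a block 22 genes were called, or 3 with the length and GC trends also removed.

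Of the members, 0 were called without the filter, with TPM and with either replicate block, 3 with array weights (Vegfb, Pgf and Nrp1), 2 without both ICI 1 and RI 4 (Pgf and Nrp1), and 0 to 2 with 1 library left out, the 2 being Pgf and Nrp1 without ICI 1. The 1 member called without both ICI 1 and ICI 4 was Nrp1, not Vegfa. Of all genes tested, 32.1% were called with array weights and 23.1% without both ICI 1 and RI 4. The share was 20% without ICI 1 and 4.49% without both ICI 1 and ICI 4. Of the other pathway genes, 0 were called without the filter, with TPM, with either replicate block and without both ICI 1 and ICI 4, 1 with the length and GC trends removed, 7 with array weights, 5 without both ICI 1 and RI 4, and 0 to 5 with 1 library left out. Vegfa kept a negative difference in all 25 alternatives, from −1.13 to −0.46 (adjusted p 0.0254 to 0.332), and was called in 12.

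Signs turned only for differences not called with all 8 tumours. With the block Vegfc was −0.02, and with the length and GC trends also removed Vegfc was −0.0015 and Vegfb 0.19. Array weights gave Flt1 0.12, and the length and GC correction gave Kdr −0.22. Without both ICI 1 and ICI 4, Flt1 was 0.10, Flt4 0.25, Tek 0.36 and the ratio of Pgf to Vegfa −0.14. Without both ICI 1 and RI 4, Angpt2 was −0.01, Flt4 0.13, Tek 0.37, the ratio of Pgf to Vegfa −0.27, and relative to endothelial markers Flt1 was −0.0027 and Angpt2 −0.01. With Pecam1 and Cdh5 as the reference Tek was −0.18. With 1 library left out the differences ran from −0.06 to 0.38 for Angpt2, −0.20 to 0.46 for Kdr, −0.48 to 0.09 for Flt4, −0.78 to 0.28 for Tek, −0.27 to 0.33 for the ratio of Pgf to Vegfa and −0.75 to 0.01 for that of Angpt2 to Angpt1. The cause was not tested. Depth limits Tek and Flt4 most, with 49 and 50 fragments in ICI 2.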
